A study of Mus musculus with 15 samples.

Results

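The iron regulatory proteins and the genes that store ferritin iron and release it were followed through 3 kinds of mouse liver tumor. The set holds 9 genes, Aco1, Ireb2, Fbxl5, Fth1, Ftl1, Ncoa4, Pcbp1, Pcbp2 and Bdh2, and was chosen by name, as every non-control probe of an Agilent mouse array whose gene name is among them. This gave 11 of the 55681 non-control probes, with 2 probes each for Ftl1 and Pcbp2. Total RNA of whole tumor tissue was labelled with 1 dye, and each of 15 tumors had an array of its own. There were 5 hepatocellular carcinomas (HCC) of control mice with a floxed p53 gene (p53f/f), 5 HCC of mice in which p53 was deleted in the liver alone (p53LKO), and 5 further tumors of p53LKO mice labelled ICC, which stands for intrahepatic cholangiocarcinoma. All mice, the p53f/f controls included, had received the liver toxin carbon tetrachloride (CCl4) by intraperitoneal injection at 0.5 µl per g of body weight for 16 weeks, and male mice were used, so no group is untreated and no normal liver is among the arrays. The study followed p53f/f mice to a greater age than p53LKO mice, and which age belongs to which tumor was not given in the sources used here, so age and genotype cannot be told apart. The p53f/f HCC came from 4 mice, since mouse 3717 gave 2 of them, and 4 p53LKO mice gave both an HCC and an ICC.

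Cells sense iron through a pair of iron regulatory proteins. IRP1, encoded by Aco1, is a cytosolic aconitase while it holds an iron-sulfur cluster and binds RNA when it has lost it, and IRP2, encoded by Ireb2, is marked for degradation by the ubiquitin ligase subunit FBXL5 when iron is plentiful. Both bind iron-responsive elements (IREs), short hairpins in mRNAs, where they block translation of ferritin and of the iron exporter ferroportin and stabilise the mRNA of the transferrin receptor. Ferritin, a shell of heavy (FTH1) and light (FTL1) chains, is loaded with iron by the chaperones PCBP1 and PCBP2 and is carried to lysosomes by its cargo receptor NCOA4. Much of this control acts on translation and on protein stability, which an array does not measure.

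Signals are given on a log2 scale relative to the 75th percentile of the same array, so a value of 0 is the level of that percentile and a difference of 1 is a 2-fold change. The software called 55.1% to 70.1% of the probes of an array well above background in p53f/f HCC, 37.0% to 62.1% in p53LKO HCC and 42.5% to 47.0% in ICC. The 2 slides held the arrays in an upper and a lower row. Every p53f/f HCC array was in an upper row and every ICC array in a lower one. Of the 5 p53LKO HCC, 2 were below, mice 3976 and 5283, and the software passed 46.4% and 37.0% of probes on these. Row and group therefore cannot be told apart between ICC and p53f/f HCC. Trp53 itself was at -1.01 ± 0.28 in p53f/f HCC, -3.09 ± 0.46 in p53LKO HCC and -3.07 ± 0.70 in ICC (SD, n = 5 each). Of 8 hepatocyte markers, all were well above background on every array. Their mean level was 6.73 to 7.51 in p53f/f HCC, 6.45 to 7.04 in p53LKO HCC and 3.60 to 5.97 in ICC. The mean level of 8 bile duct markers was -2.40 to -0.11, -2.46 to -1.14 and 0.56 to 0.84 in the same order. Because the tissue was whole tumor, fewer cells of a type and less RNA per cell cannot be told apart.

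A probe can be read only with its sequence and place in mind. The positions are those of the mouse build mm9 in the array files, and the sequences are those printed on the array. The probes below are shown because the results on Ireb2, Fbxl5 and ferritin rest on them and because some of them lie in shared or terminal sequence. The Ireb2 probe (chr9:54756566-54756625) and the Fbxl5 probe (chr5:44149482-44149541) are printed whole. The dimmer Ftl1 probe (chr17:6132140-6132198) lies at position 462 of its transcript and the brighter one (chr17:6131686-6131745) at position 915. Both are placed on chromosome 17, whereas RefSeq has Ftl1 on chromosome 7 in GRCm38, so transcripts of Ftl1 and of near-identical copies cannot be told apart. Of the brighter Ftl1 probe the last 30 bases are shown, with the run of 6 A at its 3′ end in capitals.
Ireb2: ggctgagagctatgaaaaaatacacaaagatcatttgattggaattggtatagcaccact
Fbxl5: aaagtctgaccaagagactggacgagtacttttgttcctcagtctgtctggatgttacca
Ftl1 dimmer probe: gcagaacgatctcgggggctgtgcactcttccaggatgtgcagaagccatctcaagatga
Ftl1 brighter probe, bases 31 to 60: aaaaataaagctttttgagacagcAAAAAA

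The Pcbp1 probe (chr6:86474619-86474678) and the brighter Pcbp2 probe (chr15:102329132-102329191) share an unbroken run of 24 bases, the longest run shared by any pair of the 11 probes, and the next longest is 9 bases. It is shown in capitals within 30 bases of each probe, because cross-hybridisation between these relatives cannot be told apart from their own signal.
Pcbp1, bases 13 to 42: gggATCCATATTTAGTTTTATAAGCTTttc
Pcbp2 brighter probe, bases 14 to 43: gatATCCATATTTAGTTTTATAAGCTTctc
The remaining probes lie at chr4:40145780-40145839 for Aco1, chr19:10059485-10059544 for Fth1, chr15:102330414-102330473 for the dimmer Pcbp2 probe and chr3:134967309-134967368 for Bdh2. The Ncoa4 probe is placed at chr12:120502595-120502654. RefSeq has Ncoa4 on chromosome 14 in GRCm38 and a pseudogene, Ncoa4-ps, on chromosome 12, so these too cannot be told apart.

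In p53LKO HCC against p53f/f HCC, 2 of the 9 genes passed the test by their brighter probe at an adjusted p under 0.05, Bdh2 and Ireb2, and both were lower. Over all 36086 probes tested, 32.9% were called, 10.1% higher and 22.8% lower. In p53LKO ICC against p53LKO HCC, 4 of 9 passed, Bdh2, Fth1, Ftl1 and Ncoa4, all of them lower, where 45.2% of 32666 probes were called, 18% higher and 27.2% lower. In ICC against p53f/f HCC, Bdh2, Ireb2 and Ftl1 were lower and Fbxl5 was higher, where 34% of 35702 probes were called, 11.5% higher and 22.6% lower. Ireb2 entered this comparison through the p53f/f HCC alone, so its call and its lack of overlap here are no support. The groups did not overlap for 1, 3 and 4 of the 9 genes in the same order, beside 22.5%, 28.6% and 24.3% of all probes. The median log2 difference of the 9 genes was 0.22, -0.48 and -0.48 in the 3 comparisons, beside -0.12, -0.16 and -0.31 over all probes. Bdh2 was the 1 gene with a fold change over 2 by its brighter probe in each comparison, beside 19.6%, 26.4% and 19.4% of all probes in either direction and 16%, 13.4% and 12% lower. The counts of called members are thus near the background in each comparison and are no result about the set. Each pair of comparisons shares a group of 5 arrays, so calls in them are not independent. The p-values measure the spread between these tumors, of which 2 came from 1 mouse.

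**Figure D1:**
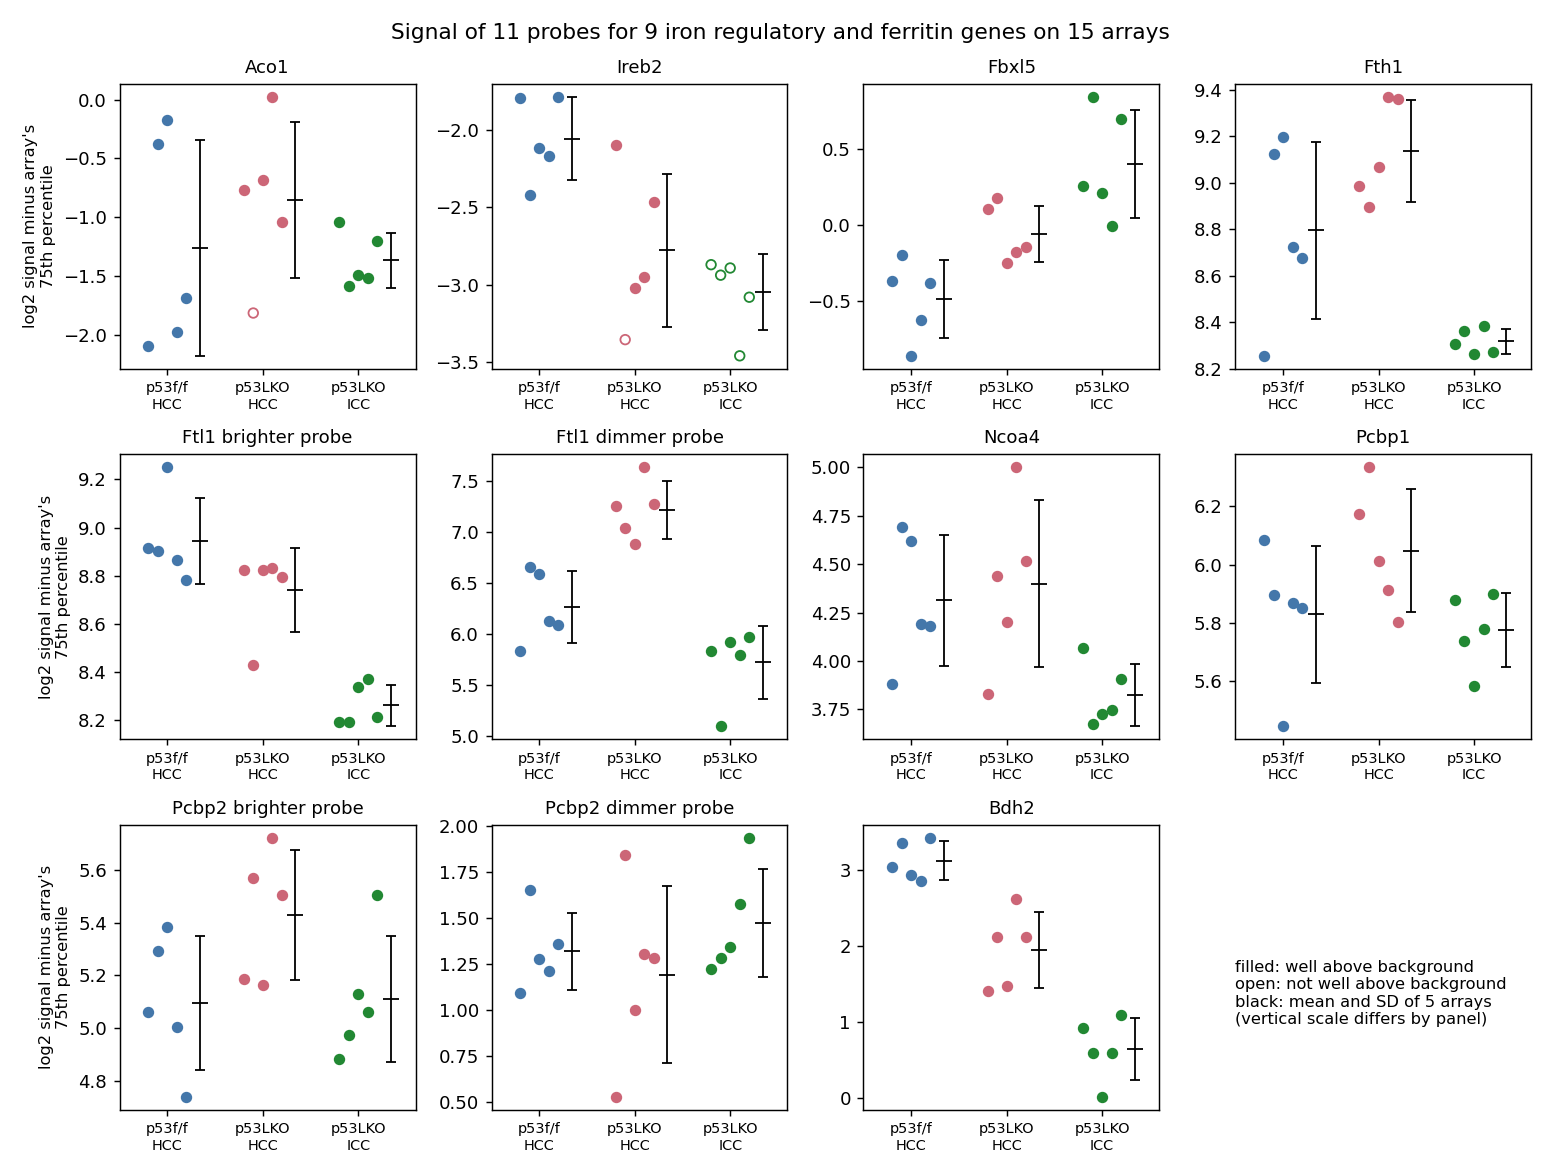
Level of each of the 11 probes on each of the 15 arrays, as log2 signal minus the 75th percentile of the array, with the mean and SD of 5 arrays in black and a vertical scale that differs by panel. The 3 groups of Bdh2 do not overlap, the dimmer Ftl1 probe is highest in all p53LKO HCC, and all 5 ICC points of Ireb2 are open because none was well above background.

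**Figure D2:**
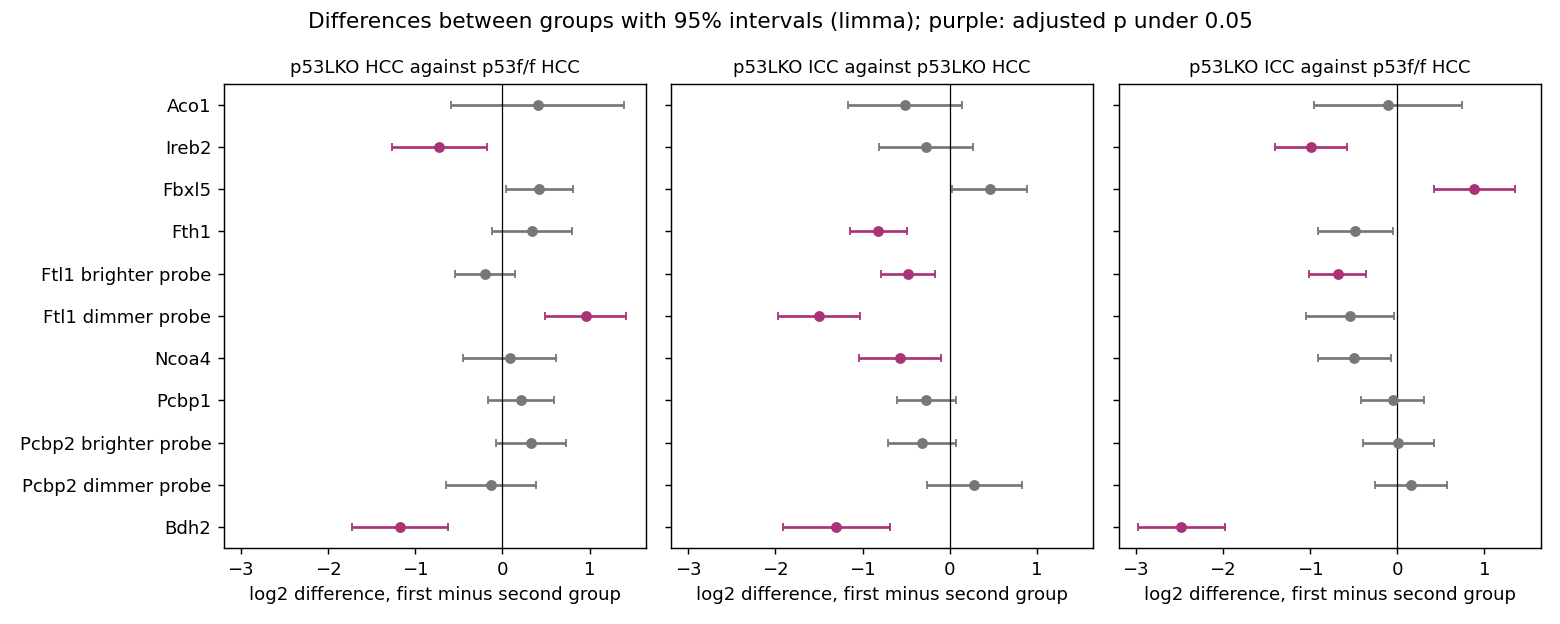
Log2 difference between groups for each probe with its 95% interval from limma, in 3 comparisons, purple where the adjusted p was under 0.05. The measured values of Ireb2 in ICC were not well above background, so its points in the 2 ICC comparisons stand for a bound at most. The interval of Bdh2 lies wholly below 0 in all 3, that of Fbxl5 wholly above 0 in all 3 although the adjusted p passed in ICC against p53f/f HCC alone.

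Aco1, the gene of IRP1, varied widely within both HCC groups. In p53f/f HCC it was at -0.37 and -0.17 in mice 3715 and 3716, and at -2.10, -1.98 and -1.68 in mouse 3681 and in both tumors of mouse 3717. In p53LKO HCC the values were -0.68, 0.03, -1.04, -0.77 and -1.82 in mice 3731, 3733, 3975, 3976 and 5283, and the last of these was not well above background. The ICC lay close together, from -1.58 to -1.04. The 3 groups overlapped, and the log2 difference was 0.41 (standard error, SE, 0.45, adjusted p = 0.516 from limma) in p53LKO HCC against p53f/f HCC, -0.51 (0.30, adjusted p = 0.180) in ICC against p53LKO HCC and -0.11 (0.38, adjusted p = 0.847, turning to 0.63 with spike-in scaling) in ICC against p53f/f HCC. The 95% interval of the HCC difference ran from -0.59 to 1.40, wide enough to hold a 2-fold rise, and with spike-in scaling the difference passed, at 1.13 (adjusted p = 0.0489). Without the p53LKO HCC of mouse 5283, Aco1 was lower in ICC than in p53LKO HCC by -0.75 (adjusted p = 0.0277 from limma).

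The mice with high Aco1 stood apart in other members too. In p53f/f HCC the tumors of mice 3715 and 3716 held the 2 highest values of Aco1, Fth1, Ncoa4, the dimmer Ftl1 probe and the brighter Pcbp2 probe. Fth1 was at 9.13 and 9.20 in them, against 8.26 to 8.72 in the other p53f/f HCC, and Ncoa4 at 4.69 and 4.62 against 3.88 to 4.19. These tumors were picked out after their values were seen, and no test was made of them.

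The cytosolic machinery that builds iron-sulfur clusters, and so turns IRP1 into aconitase, was measured with 11 genes. In p53LKO HCC against p53f/f HCC 2 rose and 1 fell, with a median of 0.49, and the share called did not exceed the 32.9% of all probes. Fam96b, a subunit of the complex that hands clusters to target proteins, rose by 1.05 (SE 0.21, adjusted p = 0.00340 from limma) without overlap. Its relative Fam96a, known for serving IRP1, was higher by 0.49 (0.18, adjusted p = 0.0518), short of the threshold. Between the p53LKO tumor types 5 of 11 fell, lower in ICC, and 0 rose, with a median of -0.41, beside 27.2% of all probes lower and 18% higher. The largest falls were those of Ciapin1, an electron carrier of the pathway, by 1.21 (0.19, adjusted p = 0.000705), and of the scaffold gene Nubp1 by 1.15 (0.24, adjusted p = 0.00341), and Fam96a fell by 0.69 (0.19, adjusted p = 0.0126). Its call ended with quantile normalization (-0.27, adjusted p = 0.280) and with the row as a block (adjusted p = 0.0718). In ICC against p53f/f HCC 1 of 11 was lower and 0 higher, beside 22.6% and 11.5% of all probes. Fam96a had -0.20 (0.16, adjusted p = 0.364), or 0.54 with spike-in scaling, and the median was -0.20.

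Ireb2, the gene of IRP2, was highest in the p53f/f HCC. The values there were -1.79, -2.42, -2.11, -2.17 and -1.78 in mice 3681, 3715 and 3716 and in the 2 tumors of mouse 3717. In p53LKO HCC they were -3.02, -2.95, -2.46, -2.10 and -3.35 in mice 3731, 3733, 3975, 3976 and 5283. Of these, 4 of 5 lay below every p53f/f HCC, and the value of mouse 5283 was not well above background. Ireb2 fell by 0.72 in p53LKO HCC (SE 0.25, adjusted p = 0.0454 from limma, exact permutation p = 0.0397), a 1.65-fold difference. Scaling to the spike-in probes turned this into 0.01, with all probes shifted to a median of 0.61, against which Ireb2 stood at -0.60. With normexp it was -0.41 (adjusted p = 0.0369). The call also ended with quantile normalization (-0.25, adjusted p = 0.437) and with the slide (adjusted p = 0.0745) or the row (adjusted p = 0.0894) as a block. It ended too with the 2 tumors of mouse 3717 averaged, with no filter on dim probes, with the methods' t-test and with a Mann-Whitney test. Of 24 alternatives 15 lost the call. The call rested on single arrays: it was lost on leaving out any of 7 of the 10, the p53LKO HCC of mice 5283, 3731 and 3733 and the p53f/f HCC of mice 3681, 3716 and 3717 (either tumor), with adjusted p values from limma of up to 0.0990 and differences of -0.89 to -0.58 over all 10 omissions.

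In ICC, Ireb2 was not well above background on any of 5 arrays, with measured values of -3.46 to -2.87. Against p53f/f HCC, where all 5 arrays were well above background, this gives a bound, at least 1.58-fold lower in ICC (measured means -3.05 and -2.06, adjusted p = 0.00315 from limma). The groups did not overlap. Against p53LKO HCC no bound above 1 could be given, and the test was not passed (adjusted p = 0.388 from limma). The call against p53f/f HCC ended with spike-in scaling (adjusted p = 0.624), where all probes had a median of 0.42.

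Fbxl5, which carries the iron-sensing domain that brings IRP2 to its ligase, moved the other way. It was at -0.37, -0.20, -0.86, -0.62 and -0.38 in the p53f/f HCC of mice 3681, 3715, 3716 and 3717 (2 tumors). In p53LKO HCC it was at -0.25, -0.17, -0.15, 0.11 and 0.18, and in ICC at 0.26, 0.84, 0.21, -0.01 and 0.70. Every ICC lay above every p53f/f HCC, and the p53LKO HCC lay between, overlapping each of the other groups through a single array. Fbxl5 rose by 0.88 in ICC against p53f/f HCC (SE 0.21, adjusted p = 0.00929 from limma, exact permutation p = 0.00794, the smallest that 252 arrangements allow), a 1.85-fold difference. With the slide as a block this was 0.79 with an adjusted p of 0.0865 from limma, and within the slides it was 0.77 and 0.81, while spike-in scaling gave 1.62 (adjusted p = 0.00549). The value of 0.77 rests on 1 ICC and that of 0.81 on 1 p53f/f HCC. The steps from p53f/f HCC to p53LKO HCC, 0.43 (0.17, adjusted p = 0.0808), and from there to ICC, 0.46 (0.20, adjusted p = 0.0780), did not pass the threshold. The first passed with normexp (0.36, adjusted p = 0.0417) and with spike-in scaling (1.15, adjusted p = 0.00752), the second with normexp (0.44, adjusted p = 0.0469) and with the percentile of bright probes (0.83, adjusted p = 0.00624). In all 4 mice with both tumors Fbxl5 was higher in the ICC, by 0.11 to 1.02. Without the ICC of mouse 3977 the step to ICC passed, at 0.56 (adjusted p = 0.0441).

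The difference between Ireb2 and Fbxl5 on the same array is left as it is by any shift of the whole array, such as the percentile or spike-in scaling. It was -2.22 to -1.26 in p53f/f HCC and -3.53 to -2.20 in p53LKO HCC, where Ireb2 was not well above background in mouse 5283. The groups overlapped, and their means differed by -1.15, or by -0.72 with quantile normalization and -0.77 with normexp. The pair was chosen after the values of both genes were seen, so this is a description with no test, and none is given for ICC, where Ireb2 has only a bound.

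Among the partners of FBXL5 the largest differences were those of Herc2. Of Skp1a, Cul1, Rbx1 and Herc2, a ubiquitin ligase known to act on FBXL5, 1 rose and 1 fell in p53LKO HCC against p53f/f HCC, beside 32.9% of all probes called. Herc2 fell by 2.60 (SE 0.28, adjusted p = 0.000130 from limma), from 4.88 ± 0.53 to 2.28 ± 0.41 (SD, n = 5 each), without overlap. It was then higher by 1.93 (0.44, adjusted p = 0.00541) in ICC than in p53LKO HCC, at 4.21 ± 1.03, the 1 call among the 4 genes, beside 45.2% of all probes. Against p53f/f HCC the ICC difference was -0.67 (0.46, adjusted p = 0.277), or 0.06 with spike-in scaling, and 0 of the 4 genes were called by limma, beside 34% of all probes.

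Ferritin mRNA was lower in ICC than in p53LKO HCC. Fth1, the heavy chain that oxidises iron as it enters the shell, was at 8.31, 8.36, 8.26, 8.39 and 8.27 in the ICC of mice 3731, 3733, 3976, 3977 and 5283. In p53LKO HCC it was at 9.07, 9.37, 9.36, 8.99 and 8.89. The 5 ICC lay close together and below every p53LKO HCC. The fall was 0.82 (SE 0.15, adjusted p = 0.00163 from limma, exact permutation p = 0.00794), or 1.76-fold, and in the 4 mice with both tumors the ICC was lower by 0.62 to 1.01. The call held with a smaller difference under quantile normalization (-0.43, adjusted p = 0.0216), with the percentile of bright probes (-0.45, adjusted p = 0.0369) and with the row of the slide as a block (-0.62, adjusted p = 0.0319).

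The p53f/f HCC overlapped both p53LKO tumor types in Fth1, at 8.26, 9.13, 9.20, 8.72 and 8.67. The difference between the HCC groups was 0.34 (95% interval -0.12 to 0.80, adjusted p = 0.230 from limma). It passed with quantile normalization, at 0.73 (adjusted p = 0.0215), and with spike-in scaling, at 1.07 (adjusted p = 0.00555). The ICC difference from p53f/f HCC was -0.48 (SE 0.20, adjusted p = 0.0796), and -0.61 (adjusted p = 0.0241) without the p53f/f HCC of mouse 3681. It turned to 0.30 with quantile normalization and 0.26 with spike-in scaling.

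Ftl1, the light chain that helps iron to form its mineral core, gave different answers with its 2 probes. The brighter probe was at 8.92, 8.90, 9.25, 8.86 and 8.78 in p53f/f HCC and at 8.82, 8.83, 8.80, 8.82 and 8.43 in p53LKO HCC, a difference of -0.20 (SE 0.16, adjusted p = 0.341 from limma). The dimmer probe was at 5.83, 6.66, 6.59, 6.13 and 6.09 in p53f/f HCC and at 6.88, 7.64, 7.28, 7.26 and 7.03 in p53LKO HCC. By the dimmer probe Ftl1 thus rose by 0.95 (0.21, adjusted p = 0.00637), or 1.94-fold, without overlap, and it rose by 1.17 and 0.84 within the slides and by 1.00 within the upper row, and by 1.68 with spike-in scaling. The value of 1.17 sets 3 p53LKO HCC against 1 p53f/f HCC, the only one on that slide. The direction of the brighter probe was not stable, at 0.18 with quantile normalization and 0.52 with spike-in scaling (adjusted p = 0.0429), against -0.45 with the percentile of bright probes (adjusted p = 0.0470).

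In ICC both Ftl1 probes were lower than in p53LKO HCC. The brighter probe was at 8.19, 8.19, 8.34, 8.37 and 8.21, a fall of 0.48 (SE 0.14, adjusted p = 0.0190 from limma), and the dimmer probe at 5.83, 5.09, 5.92, 5.79 and 5.97, a fall of 1.49 (0.21, adjusted p = 0.000441) or 2.82-fold. Neither probe overlapped between these groups, and both were lower in the ICC of all 4 mice with both tumors. The call of the brighter probe was lost with the row of the slide as a block (-0.37, adjusted p = 0.168), with quantile normalization (-0.03, adjusted p = 0.876), with the percentile of bright probes (-0.11, adjusted p = 0.583), with spike-in scaling (adjusted p = 0.174), with no filter on dim probes (adjusted p = 0.0688) and with the mouse as a block (adjusted p = 0.0915). That of the dimmer probe held in each of these, with a row-blocked difference of -1.42 (adjusted p = 0.00824). Against p53f/f HCC the brighter probe was lower in ICC by -0.68 (0.15, adjusted p = 0.00607) without overlap, a difference that turned to 0.15 with quantile normalization and 0.05 with spike-in scaling and lost its call with the slide as a block (adjusted p = 0.0594). The dimmer probe gave -0.54 (0.23, adjusted p = 0.0918), which was -0.17 with quantile normalization and turned to 0.19 with spike-in scaling.

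**Figure D3:**
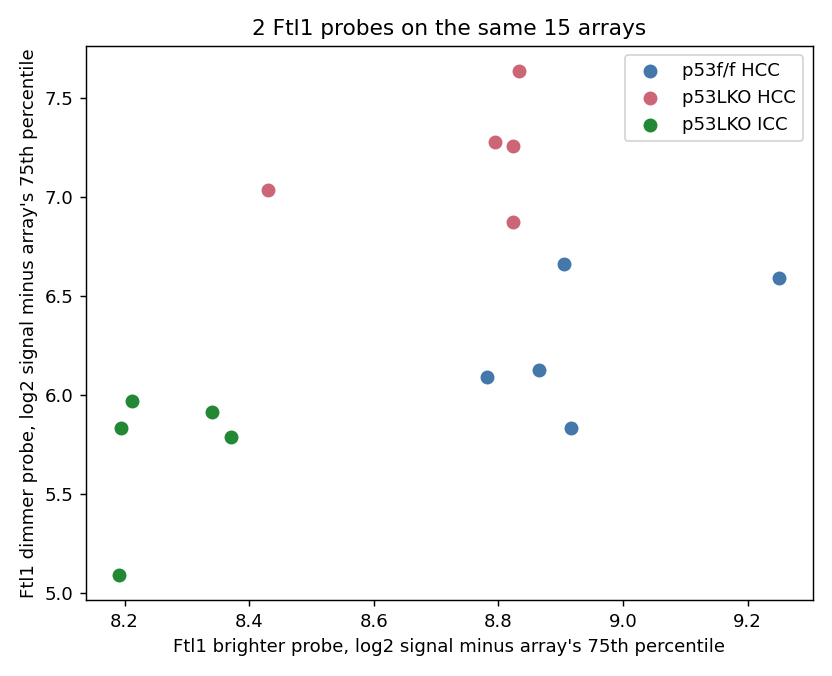
The brighter Ftl1 probe (horizontal) against the dimmer Ftl1 probe (vertical) on the same 15 arrays, both as log2 signal minus the 75th percentile of the array. The p53LKO HCC lie above 6.8 on the vertical axis and apart from both other groups, while the ICC lie left of all HCC on the horizontal axis.

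The probes of Ftl1 were also compared on the same array, which takes out any shift of the whole array. The log2 signal of the brighter probe minus that of the dimmer probe was 2.24 to 3.08 in p53f/f HCC, 1.20 to 1.95 in p53LKO HCC and 2.24 to 3.1 in ICC. The p53LKO HCC stood below every other array. The change was -1.16 against p53f/f HCC and 1.02 for ICC against p53LKO HCC, and the difference of ICC from p53f/f HCC was -0.14, which turned to 0.32 with quantile normalization. With quantile normalization, which is no such shift, the change between the HCC groups was -0.68 and the groups overlapped. Fth1 minus the brighter Ftl1 probe was higher in p53LKO HCC than in p53f/f HCC by 0.54 on average, with overlap, and Fth1 minus Ncoa4 by 0.26. These pairs too were chosen after the values were seen and are given with no test.

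Ferritin genes other than Fth1 and Ftl1 were weak on these arrays. Of 13 listed paralogs 8 had a probe, and 5 of these were tested in p53LKO HCC against p53f/f HCC. Several entered the test through the p53f/f HCC alone, the group in which they were brighter, so no count, fold change or p is given for them. Fthl17f, an X-linked heavy-chain relative, was well above background on 5 of 5 arrays of p53f/f HCC and on 2 of 5 in p53LKO HCC and in ICC. Fthl17-ps1 was well above background on 4 arrays of p53f/f HCC, 2 of p53LKO HCC and 0 of ICC. In the same order Fthl17a was so on 5, 3 and 0 arrays, Ftdc1 on 3, 2 and 0 and Ftdc2 on 5, 5 and 1. Over all probes the share well above background was 55.1% to 70.1%, 37.0% to 62.1% and 42.5% to 47.0%, so these counts are no result about the paralogs.

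Ncoa4, which carries ferritin to lysosomes for breakdown, was lower in ICC than in p53LKO HCC, by an adjusted p close to the threshold, and was well above background on all 15 arrays. The ICC of mice 3731, 3733, 3976, 3977 and 5283 were at 4.07, 3.67, 3.73, 3.75 and 3.91, and the p53LKO HCC of mice 3731, 3733, 3975, 3976 and 5283 at 4.2, 5.0, 4.52, 3.83 and 4.44. The groups overlapped, since the HCC of mouse 3976 lay within the ICC. The fall was 0.57 (SE 0.21, adjusted p = 0.0475 from limma, exact permutation p = 0.0238). The call was lost under 20 of 25 alternatives. Quantile normalization took the difference to -0.13 (adjusted p = 0.614) and the percentile of bright probes to -0.20 (adjusted p = 0.440), while spike-in scaling left it at -0.57 without a call (adjusted p = 0.150). Leaving out any of 8 of the 10 arrays ended the call, all but the p53LKO HCC of mice 3976 and 3731, with differences of -0.72 to -0.42 and adjusted p values up to 0.0988, and with the row of the slide as a block it was -0.31 (adjusted p = 0.403). The HCC groups gave 0.08 (95% interval -0.45 to 0.62, adjusted p = 0.814), which became 0.81 (adjusted p = 0.0271) with spike-in scaling and turned to -0.14 with quantile normalization and -0.16 with the percentile of bright probes. For ICC against p53f/f HCC the difference was -0.49 (adjusted p = 0.0696), and it turned to 0.25 with spike-in scaling (adjusted p = 0.639). It passed without the p53f/f HCC of mouse 3681 (-0.60, adjusted p = 0.0350), with normexp (-0.53, adjusted p = 0.0285) and with only probes bright on every array tested (adjusted p = 0.0480).

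Of 27 other genes of autophagy and the lysosome, the route that frees iron from ferritin, 9 rose and 1 fell in p53LKO HCC against p53f/f HCC, with a median of 0.40 beside -0.12 over all probes, of which 10.1% were called higher and 22.8% lower. Both LC3 genes, whose products coat autophagosomes, rose, Map1lc3a by 1.39 (SE 0.31, adjusted p = 0.00643 from limma) and Map1lc3b by 1.05 (0.18, adjusted p = 0.00160). Steap3, a ferrireductase of endosomes, rose by 1.02 (0.33, adjusted p = 0.0374), while Atg9a, a membrane protein of early autophagosomes, fell by 1.02 (0.23, adjusted p = 0.00637). Steap3 lost its call with quantile normalization (0.80, adjusted p = 0.0984) and with the row as a block (adjusted p = 0.116), and Atg9a with spike-in scaling (-0.29, adjusted p = 0.324).

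Of the 27, 13 fell and 1 rose in ICC against p53LKO HCC, with a median of -0.62 beside -0.16 over all probes, of which 27.2% were called lower and 18% higher. Ulk1, the kinase that starts autophagy, fell by 2.0 (SE 0.30, adjusted p = 0.000572 from limma). Steap3 fell by 1.71 (0.20, adjusted p = 0.000164), the cargo receptor gene Sqstm1 by 1.44 (0.25, adjusted p = 0.00119) and Lamp1, a lysosomal membrane protein, by 1.14 (0.16, adjusted p = 0.000445). None of these 4 overlapped between the groups. In ICC against p53f/f HCC 6 fell and 2 rose, with a median of -0.20 beside -0.31 over all probes, of which 22.6% were called lower and 11.5% higher. Ulk1 and Sqstm1 fell again, by 2.03 (0.28, adjusted p = 0.000624) and 1.29 (0.32, adjusted p = 0.0109). With spike-in scaling these were -1.29 (adjusted p = 0.0248) and -0.55 (adjusted p = 0.328).

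The chaperones that hand iron to ferritin were not called in any comparison with the 75th percentile scaling. Pcbp1 was at 5.45 to 6.08 in p53f/f HCC, 5.80 to 6.33 in p53LKO HCC and 5.58 to 5.90 in ICC. Its largest difference was -0.27 in ICC against p53LKO HCC (95% interval -0.61 to 0.07, adjusted p = 0.172 from limma), and it was lower in the ICC of all 4 mice with both tumors, by 0.13 to 0.59. The brighter Pcbp2 probe was at 4.74 to 5.38, 5.16 to 5.72 and 4.88 to 5.50, with 0.33 (95% interval -0.07 to 0.74, adjusted p = 0.184) between the HCC groups and -0.32 (-0.71 to 0.07, adjusted p = 0.167) in ICC against p53LKO HCC. The dimmer Pcbp2 probe gave -0.13 and 0.28 for these comparisons (adjusted p = 0.707 and 0.374). Against p53f/f HCC the ICC differences of Pcbp1 and of the brighter and dimmer Pcbp2 probes were -0.05, 0.01 and 0.15, and the first turned to 0.31 with quantile normalization and 0.68 with spike-in scaling. Quantile normalization turned the ICC differences from p53LKO HCC to 0.25 for Pcbp1 and 0.21 for the brighter Pcbp2 probe. Between the HCC groups spike-in scaling, with its median of 0.61 over all probes, gave calls for Pcbp1 (0.94, adjusted p = 0.0157) and the brighter Pcbp2 probe (1.06, adjusted p = 0.00264). The percentile of bright probes gave a call for the dimmer Pcbp2 probe in ICC against p53LKO HCC (0.65, adjusted p = 0.0417).

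Of 3 relatives in the same family of RNA-binding proteins, Pcbp3, Pcbp4 and Hnrnpk, limma called 0 in p53LKO HCC against p53f/f HCC and 0 in ICC against p53f/f HCC, beside 32.9% and 34% of all probes. It called 1 higher in ICC than in p53LKO HCC, beside 18% of all probes higher. Pcbp4, itself a target of p53, was at 1.27 ± 0.50, 1.65 ± 0.54 and 1.15 ± 0.50 in p53f/f HCC, p53LKO HCC and ICC (SD, n = 5 each). Its differences were 0.38 (adjusted p = 0.365 from limma) between the HCC groups and -0.49 (adjusted p = 0.209) and -0.12 (adjusted p = 0.783, turning to 0.62 with spike-in scaling) for ICC against p53LKO and p53f/f HCC.

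Bdh2 separated all 3 groups. It encodes a cytosolic dehydrogenase that has been linked to a mammalian siderophore, a small molecule that binds iron, and its mRNA carries an IRE of its own. In p53f/f HCC it was at 3.03, 3.36, 2.94, 2.85 and 3.42 in mice 3681, 3715 and 3716 and in the 2 tumors of mouse 3717. In p53LKO HCC it was at 1.47, 2.61, 2.12, 1.41 and 2.11 in mice 3731, 3733, 3975, 3976 and 5283, and in ICC at 0.93, 0.59, 0.02, 0.60 and 1.10 in mice 3731, 3733, 3976, 3977 and 5283. Every p53f/f HCC lay above every p53LKO HCC, and every p53LKO HCC above every ICC.

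Bdh2 fell by 1.17 in p53LKO HCC against p53f/f HCC (SE 0.25, adjusted p = 0.00485 from limma), or 2.26-fold. In ICC against p53LKO HCC it fell by 1.30 (0.28, adjusted p = 0.00382), or 2.46-fold, and in ICC against p53f/f HCC by 2.47 (0.22, adjusted p = 5.25e-05), or 5.56-fold. Each of these had an exact permutation p of 0.00794. The HCC difference was -1.28 and -1.36 within the slides, the latter against 1 p53f/f HCC alone. It was -1.05 within the upper row, and it held on leaving out any array (-1.34 to -1.04). With spike-in scaling it was -0.45 (adjusted p = 0.229), where Bdh2 stood at -1.06 relative to the median of all probes. In the 4 mice with both tumors the ICC was lower by 0.54, 2.02, 1.39 and 1.02. With the row of the slide as a block the ICC difference from p53LKO HCC was -1.12 (adjusted p = 0.0513).

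Of the 8 hepatocyte markers, 2 fell in p53LKO HCC against p53f/f HCC, beside 22.8% of all probes, with a median of -0.43 and with Hnf4a at 0.27. Of the same 8, 6 fell in ICC against p53LKO HCC, beside 27.2% of all probes, with a median of -1.82, and 6 fell in ICC against p53f/f HCC, beside 22.6%, with a median of -2.11. In ICC against p53LKO HCC 4 of 8 bile duct markers and 5 of 8 markers of stellate cells and fibroblasts rose, beside 18% of all probes, with medians of 1.69 and 1.78. Against p53f/f HCC 5 of 8 of each rose, with medians of 1.71 and 2.35, as did 2 of 7 macrophage markers, with a median of 0.24. This was beside 11.5% of all probes. Of 6 endothelial markers 2 fell in p53LKO HCC against p53f/f HCC, with a median of -0.26, beside 22.8% of all probes. The part of the cell makeup in the differences of Bdh2, ferritin and the other genes between ICC and HCC was not tested.

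Lcn2 encodes a secreted protein that binds siderophores, and with its receptor gene Slc22a17 made up a list of 2 genes. Lcn2 rose by 1.34 in p53LKO HCC (SE 0.31, adjusted p = 0.00701 from limma), from 7.39 ± 0.67 to 8.73 ± 0.30 (SD, n = 5 each), without overlap. It then fell by 2.76 in ICC against p53LKO HCC (0.28, adjusted p = 7.47e-05), a 6.76-fold difference, and by 1.42 in ICC against p53f/f HCC (0.36, adjusted p = 0.0128), a call lost with quantile normalization (-0.96, adjusted p = 0.0539), with spike-in scaling (-0.68, adjusted p = 0.227) and with the slide as a block (adjusted p = 0.106). Its direction between the HCC groups was opposite to that of Bdh2, and in ICC both were lowest.

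The mRNAs that IRPs are known to bind, other than the members, were followed with 7 genes. In p53LKO HCC against p53f/f HCC 3 rose and 0 fell, with a median of 0.48 beside -0.12 over all probes, of which 10.1% were called higher and 22.8% lower. The 3 were Tfrc, Slc11a2 and Cdc42bpa, of the 4 in which the element lies in the 3′ part of the mRNA. The remaining one, Cdc14a, went the other way, at -0.66 (adjusted p = 0.0981 from limma). Tfrc, the transferrin receptor, rose by 1.49 (SE 0.27, adjusted p = 0.00217 from limma), from -0.54 ± 0.50 to 0.94 ± 0.39 (SD, n = 5 each). Of the 3 with a 5′ element, Slc40a1, Alas2 and Epas1, limma called 0. Slc40a1, the iron exporter ferroportin, gave 0.48 (0.28, adjusted p = 0.198).

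Of the 7, 4 fell in ICC against p53LKO HCC and 0 rose, with a median of -1.17 beside -0.16 over all probes, of which 27.2% were called lower and 18% higher. All 3 mRNAs with a 5′ element were among them, with a median of -2.17. Slc40a1 fell by 2.26 (SE 0.35, adjusted p = 0.000735 from limma), Alas2, the erythroid enzyme of heme synthesis, fell by 2.17 (0.32, adjusted p = 0.000552), and Epas1, the hypoxia factor HIF2α, fell by 1.23 (0.20, adjusted p = 0.000795), or by 0.73 with quantile normalization (adjusted p = 0.0142). Of those with a 3′ element Tfrc fell, by 1.17 (0.31, adjusted p = 0.0124), a call lost with the percentile of bright probes (-0.80, adjusted p = 0.0763) and with the row as a block (-0.93, adjusted p = 0.122). The split by the side of the element was made after the values were seen. Of 7 erythroid markers the globin genes Hba-a1 and Hbb-b1 were well above background on all arrays and fell by 1.68 and 1.58 (adjusted p = 0.00235 and 0.00793), and their part in the fall of Alas2 was not tested.

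In ICC against p53f/f HCC 3 of the 7 fell and 0 rose, with a median of 0.12 beside -0.31 over all probes, of which 22.6% were called lower and 11.5% higher. Alas2 fell by 2.75 (SE 0.32, adjusted p = 0.000207 from limma) and Slc40a1 by 1.77 (0.41, adjusted p = 0.00797), while Tfrc had 0.32 (0.34, adjusted p = 0.480). Of the 4 erythroid markers tested here 1 was called lower, with a median of -1.54, and their part in the fall of Alas2 was not tested. The call of Slc40a1 was lost with spike-in scaling (-1.04, adjusted p = 0.0989) and with the slide as a block (adjusted p = 0.0596).

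**Figure D4:**
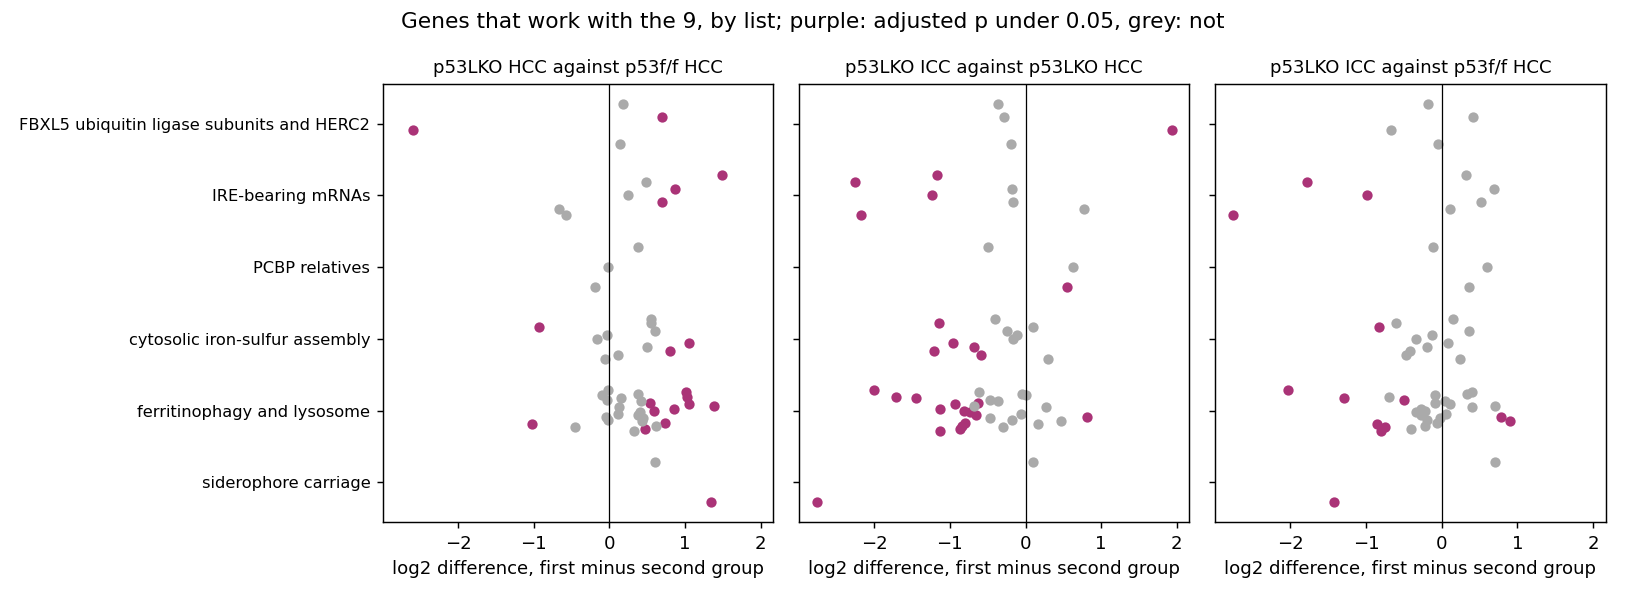
Log2 difference of each tested gene of 6 lists of genes that work with the 9 (the ferritin paralogs are left out), in 3 comparisons, purple where the adjusted p from limma was under 0.05 and grey where not. Herc2 is the point at -2.60 in the first panel and at 1.93 in the second, and Lcn2 the point at -2.76 in the second.

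The genes whose level followed each member most closely over the 15 arrays were named by Pearson r among about 13158 genes, as a description that includes the differences between groups. For Fth1 they were Abcc4 (0.95) and Slc18a1 (0.94), for the brighter Ftl1 probe Gc (0.94) and Gstp2 (0.92), and for Ncoa4 Rtraf (0.95) and Cnih1 (0.94). For Bdh2 they were Kash5 (0.94) and Spryd4 (0.94), and for Fbxl5 Camsap1 (0.95) and Vps50 (0.92). Aco1 was followed by Man1a2 (0.86) and Arl6ip4 (0.86), Ireb2 by Tmem62 (0.87) and A730046J19Rik (0.86), Pcbp1 by Trdmt1 (0.92) and Bms1 (0.90), and Pcbp2 by Apex1 (0.91) and Rps19bp1 (0.91). No member was among the 2 closest genes of another.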

How the data were processed

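Total RNA of 15 whole mouse liver tumors was hybridised to 1-colour Agilent arrays. The deposited scanner files hold spot intensity, background-subtracted and detrended within each array by Agilent Feature Extraction 10.7.3.1, per the file headers, with no scaling between arrays. The authors' processed table holds log2 values scaled to a 75th percentile and centred per probe on the 10 HCC arrays or the 10 p53LKO arrays, and served only as an alternative in the HCC comparison. Each array has 62976 spots. The log2 of each spot was taken, and spots flagged as outliers by the software were left out. Spots of a probe were then averaged and the 75th percentile over non-control probes was subtracted. The number of arrays limits the precision.

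A probe was tested if 3 or more arrays of either group had it well above background, with limma 3.58.1 in R 4.3.3, no covariates, and Benjamini-Hochberg adjustment over all probes tested, and called at an adjusted p under 0.05. Exact permutation tests were 2-sided over 252 arrangements of the arrays. A gene was represented by its brightest probe. Of the lists, genes called with a fold change over 2 were named, at most 4 per list and comparison, together with Tfrc, Slc40a1, Fam96a, Herc2, Pcbp4 and Lcn2, and for each member the 2 genes of highest Pearson r. The other genes named were chosen after their values were seen. 1 further gene of the rule and of a list is not reported here. The members and lists were chosen with earlier results of these data known. Tested on simulated data, the fit recovered 31%, 33% and 20% of probes changed by 1 on the log2 scale and 87%, 82% and 73% of those changed by 2, in the order p53LKO HCC against p53f/f HCC (36086 probes), ICC against p53LKO HCC (32666) and ICC against p53f/f HCC (35702). Only 100 probes were changed by each amount there, with independent normal noise. In the data 32.9%, 45.2% and 34% of probes were called, so these recoveries check the code and do not measure the power here.

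Alternatives were normexp (offset 50), quantile normalization, scaling to 7 spike-in probes or to the percentile of probes bright on all arrays, other filters, slide, row or mouse as a block, 1 model of all arrays, other tests, and leaving out each array. The mouse pairs HCC and ICC of 4 mice by the labels, where deviations from the group means correlated at -0.14 to 0.07 within mice and -0.26 to 0.28 between mice.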

Additional observations from a re-analysis of the deposited data

Results flagged for a closer look

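In 3 of 33 sets of 5 tumors (11 probes in 3 groups) the highest or lowest tumor stood apart from the others by more than Dixon's 95% critical value of 0.71 allows, and chance alone flags about 1 in 20 groups. All 3 concerned Ftl1. The brighter probe was at 9.25 in the p53f/f HCC of mouse 3716, against 8.78 to 8.92 in the other p53f/f HCC. It was at 8.43 in the p53LKO HCC of mouse 5283, on which 37.0% of probes were well above background, against 8.79 to 8.83 in the others. The dimmer probe was at 5.09 in the ICC of mouse 3733, against 5.79 to 5.97 in the other ICC. The calls of both Ftl1 probes in ICC against p53LKO HCC held on leaving out any 1 of the 10 arrays.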

How the results depend on the processing

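Of 9 genes, 2 passed in p53LKO HCC against p53f/f HCC, beside 32.9% of all probes. With spike-in scaling the count was 7, all higher (Aco1, Fbxl5, Fth1, Ftl1, Ncoa4, Pcbp1 and Pcbp2), with neither Bdh2 nor Ireb2 among them. That scaling called 50% of the 36086 probes, 15065 of them higher and 2977 lower. The count was 3 with normexp (Bdh2, Ireb2 and Fbxl5) and with the percentile of bright probes (Bdh2, Ireb2 and Ftl1), beside 39.9% and 37.4% of all probes. The count was 1 with no filter on dim probes, with probes well above background on every array, with the slide or the row as a block, with the methods' t-test, with a Mann-Whitney test, with a fold change over 2 or the tumors of mouse 3717 averaged, and 1 to 2 on leaving out single arrays. In that order 15.3%, 25%, 27.5%, 26.4%, 25.6%, 22.5%, 19.6% and 26% of all probes were called, and 26% to 34.8% without single arrays. In ICC against p53LKO HCC 4 passed, with 2 under quantile normalization, spike-in scaling, no filter, the mouse as a replicate block or the lower rows alone (chosen after seeing the data), 1 with the row as a block or a fold change over 2, 5 with normexp (Fbxl5 added), 3 with the percentile of bright probes, and 3 to 4 without single arrays. Of all probes 45.2% passed, and in that order 42.9%, 31.2%, 21.7%, 33.9%, 29.2%, 26.4%, 26.4%, 42.3% and 42%. Without single arrays 36.1% to 48.2% of them passed. In ICC against p53f/f HCC 4 passed, with 2 under spike-in scaling or the slide as a block, 1 with a fold change over 2, 3 with quantile normalization (Ftl1 lost), 5 with normexp (Ncoa4 added), and 4 to 6 without single arrays. Of all probes 34% passed, and in that order 24%, 12%, 19.4%, 31.1% and 36.8%. Without single arrays 26.3% to 33.9% of them passed. Ireb2 entered this comparison through the p53f/f HCC alone. With the mouse as a replicate block (4 pairs) Bdh2 was at -1.24 (adjusted p = 0.0222 from limma), Fth1 at -0.78 (0.0258), the brighter Ftl1 probe at -0.49 (0.0915) and Ncoa4 at -0.53 (0.17), and the same 8 arrays unpaired (chosen after seeing the data) gave adjusted p values of 0.0461 for the brighter Ftl1 probe and 0.133 for Ncoa4. Directions turned as follows. Between the HCC groups, quantile normalization gave 0.18 for the brighter Ftl1 probe and -0.14 for Ncoa4, the percentile of bright probes gave -0.16 for Ncoa4 and -0.03 for Pcbp1, spike-in scaling gave 0.01 for Ireb2, 0.52 for the brighter Ftl1 probe and 0.60 for the dimmer Pcbp2 probe, and leaving out single arrays gave -0.07 to 0.23 for Ncoa4 and -0.29 to 0.04 for the dimmer Pcbp2 probe. In ICC against p53LKO HCC, quantile normalization gave 0.25 for Pcbp1 and 0.21 for the brighter Pcbp2 probe, and the percentile of bright probes gave 0.10 for Ireb2 (not above background in ICC), 0.10 for Pcbp1 and 0.05 for the brighter Pcbp2 probe. In ICC against p53f/f HCC, quantile normalization gave 0.30 for Fth1, 0.15 for the brighter Ftl1 probe and 0.31 for Pcbp1. Spike-in scaling gave 0.63 for Aco1, 0.26 for Fth1, 0.05 and 0.19 for the brighter and dimmer Ftl1 probes, 0.25 for Ncoa4, 0.68 for Pcbp1, 0.06 for Herc2, 0.62 for Pcbp4 and 0.54 for Fam96a. The percentile of bright probes gave 0.02 for Aco1, 0.07 for Pcbp1 and 0.01 for Pcbp4, normexp gave 0.03 for Aco1, the slide block gave 0.17 for Aco1, and averaging mouse 3717 gave -0.04 for the brighter Pcbp2 probe. Leaving out single arrays gave -0.31 to 0.17 for Aco1, -0.15 to 0.01 for Pcbp1, -0.27 to 0.06 for Pcbp4 and -0.09 to 0.09 for the brighter Pcbp2 probe. The median of all probes moved with the scaling, to 0.61, -0.15 and 0.42 in the 3 comparisons with spike-in scaling. Between the HCC groups that scaling also raised Fam96b to 1.78, Map1lc3a to 2.11, Map1lc3b to 1.77, Steap3 to 1.75 and Lcn2 to 2.07. The cause of these changes was not tested. Over all 11 probes, 680 of 786 alternatives left direction and call as they were, 53 lost a call, 18 gained one and 35 turned. The 680 include results that were never called and stayed so, and thus overstate how firm the calls are. Ireb2 kept its call between the HCC groups in 8 of 24 alternatives, and Ncoa4 its call in ICC against p53LKO HCC in 5 of 25. With 5 arrays a group, with Ireb2 near background and with Aco1 spread widely between tumors, small changes of these genes could not be resolved.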
